A study of Rattus norvegicus with 10 samples.

Results

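Among 10 arrays of whole rat mammary gland, 6 were compared here because they lay at the ends of the range of luminal epithelial signal. They were chosen by measured values. The 3 arrays with the highest luminal gene means, casein 7, casein 18 and soy 147, are called epithelium-rich, and the 3 with the lowest, casein 6, soy 149 and soy 159, are called epithelium-poor. The other 4 arrays, casein 10, casein 20, soy 155 and soy 157, were left out of the contrast and were used to see where glands in between lay. All 10 arrays came from female SD rats at postnatal day 21, the age of weaning, whose AIN-93G diet, a purified rodent feed, held casein or soy protein isolate since gestation day 4. The labels give 5 arrays to each diet and no genotype, drug or other agent. The epithelium-rich side held 2 casein arrays and 1 soy array, and the epithelium-poor side 1 casein array and 2 soy arrays, so the contrast is not balanced for diet. The labels mention pools of RNA with several labelled targets made from each, so the spread between arrays may be partly technical and an array may not be a separate animal. Because gene levels on these arrays chose the sides, each difference between them is a description and carries no test, for luminal genes and for all others alike.

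At weaning the mammary gland of a female rat is a small, branching tree of epithelial ducts inside a pad of fat, with blood vessels, nerves, mast cells and a lymph node. The ducts have an inner layer of luminal cells, which hold the keratins of simple epithelia and are the cells that later make milk, and an outer basal layer of myoepithelial cells, which hold keratins of stratified epithelia together with smooth muscle proteins. A bulk sample mixes RNA from all these tissues. Fewer epithelial cells and less epithelial RNA per cell cannot be told apart in it.

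The promoters of 5 genes that the account turns on are shown because their signals differed together between the sides. They are Krt8 and Krt18, the paired keratins of luminal cells, Krt5, a keratin of basal cells, Csn1s1, which encodes alpha-S1-casein, and Igfbp2, an insulin-like growth factor binding protein whose gap between the sides was the widest of the probe sets that were bright enough to be compared. Each run holds the 250 bases before the gene's start, read 5′ to 3′ on the gene's own strand, from RefSeq on build GRCr8. Capitals mark matches, on either strand, to TATAAA (a core promoter element), TTCNNNGAA (the core of STAT binding sites), AACCGG (the core of sites bound by grainyhead-like factors) or GGGCGG (a site of Sp-family factors). Krt8 lies at chr7:135010340-135010589 on the minus strand and Krt18 at chr7:135035918-135036167 on the plus strand. Krt5 lies at chr7:134730570-134730819 on the minus strand, Csn1s1 at chr14:20638850-20639099 on the minus strand and Igfbp2 at chr9:81864561-81864810 on the plus strand.
Krt8: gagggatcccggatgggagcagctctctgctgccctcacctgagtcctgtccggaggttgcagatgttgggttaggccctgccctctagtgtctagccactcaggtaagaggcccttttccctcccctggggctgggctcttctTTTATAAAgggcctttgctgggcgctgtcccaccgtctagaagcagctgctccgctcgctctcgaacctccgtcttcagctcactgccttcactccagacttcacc
Krt18: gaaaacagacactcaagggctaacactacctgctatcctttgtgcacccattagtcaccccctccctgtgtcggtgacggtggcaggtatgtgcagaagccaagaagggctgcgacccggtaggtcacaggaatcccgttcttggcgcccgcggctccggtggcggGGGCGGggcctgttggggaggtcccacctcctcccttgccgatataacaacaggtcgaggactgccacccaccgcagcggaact
Krt5: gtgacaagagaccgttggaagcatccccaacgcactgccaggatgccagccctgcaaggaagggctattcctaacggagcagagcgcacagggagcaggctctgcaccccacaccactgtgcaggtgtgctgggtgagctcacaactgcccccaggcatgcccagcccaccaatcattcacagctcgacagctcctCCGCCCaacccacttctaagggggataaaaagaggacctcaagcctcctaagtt
Csn1s1: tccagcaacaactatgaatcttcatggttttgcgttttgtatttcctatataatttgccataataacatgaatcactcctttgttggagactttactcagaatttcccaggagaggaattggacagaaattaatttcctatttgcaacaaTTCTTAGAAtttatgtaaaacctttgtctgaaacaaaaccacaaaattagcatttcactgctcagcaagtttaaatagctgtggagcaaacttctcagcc
Igfbp2: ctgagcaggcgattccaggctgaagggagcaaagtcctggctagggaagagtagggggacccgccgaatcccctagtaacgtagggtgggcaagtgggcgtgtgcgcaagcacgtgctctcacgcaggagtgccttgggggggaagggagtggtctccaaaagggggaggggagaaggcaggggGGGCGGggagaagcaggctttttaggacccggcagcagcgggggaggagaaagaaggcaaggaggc
The matches were not the same in the 5 runs. Krt8 held TATAAA 104 bases before its start, overlapping a copy on the other strand, and no GGGCGG. Krt18 and Igfbp2 held GGGCGG 84 and 66 bases before their starts, Krt5 held it on the opposite strand at 54 bases, and Csn1s1 held TTCNNNGAA at 100 bases. TATAAA was found in 10.7% of the 75 such windows matched to genes that were higher in the epithelium-rich arrays by the rule given below, in 6.64% of 6594 windows of genes tested and in 12.9% of all 33469 windows. For TTCNNNGAA the shares were 8.0%, 5.72% and 7.67%, for AACCGG 6.67%, 9.9% and 5.67%, and for GGGCGG 56.0%, 60.4% and 30.5%. These are counts of letters in a window and not of sites in use.

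The label was checked against Krt8, Krt18 and Epcam, the epithelial cell adhesion molecule. All values are log2 of the deposited MAS5 signal, a brightness per probe set, with the deposited scaling of the arrays kept. Krt8 was at 11.33 in casein 7, 10.28 in casein 18 and 9.92 in soy 147, and at 7.32 in casein 6, 7.72 in soy 149 and 6.96 in soy 159. The sides did not overlap, and the left-out arrays lay between them, at 8.92 to 9.69. The means were 10.51 ± 0.73 (SD, n = 3) and 7.33 ± 0.38 (SD, n = 3), a difference of 3.18, or 9.09-fold. Krt18 was at 10.93, 9.89 and 9.88 in casein 7, casein 18 and soy 147, and at 4.49, 7.64 and 7.39 in casein 6, soy 149 and soy 159. It stood lowest in casein 6, and without that array the difference of 3.73 was 2.72. Epcam was at 11.72, 10.10 and 11.21 in the epithelium-rich arrays in the same order, and at 7.67, 7.98 and 4.53 in the epithelium-poor arrays. Soy 159 was lowest, and the difference of 4.28 was 3.18 without it and 4.91 without soy 149. None of the 3 markers overlapped between the sides. Since luminal gene levels chose the sides, this describes the choice and is no independent check of the label.

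At the edges of the choice, the mean of the luminal keratins Krt8, Krt18 and Krt19 was 9.81 in soy 147, the lowest epithelium-rich array, and 9.59 in soy 155, the highest array left out. At the other edge it was 8.80 in casein 20, the lowest array left out, and 7.59 in soy 149, the highest epithelium-poor array. The upper edge was therefore narrow and the lower edge wide.

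**Figure D1:**
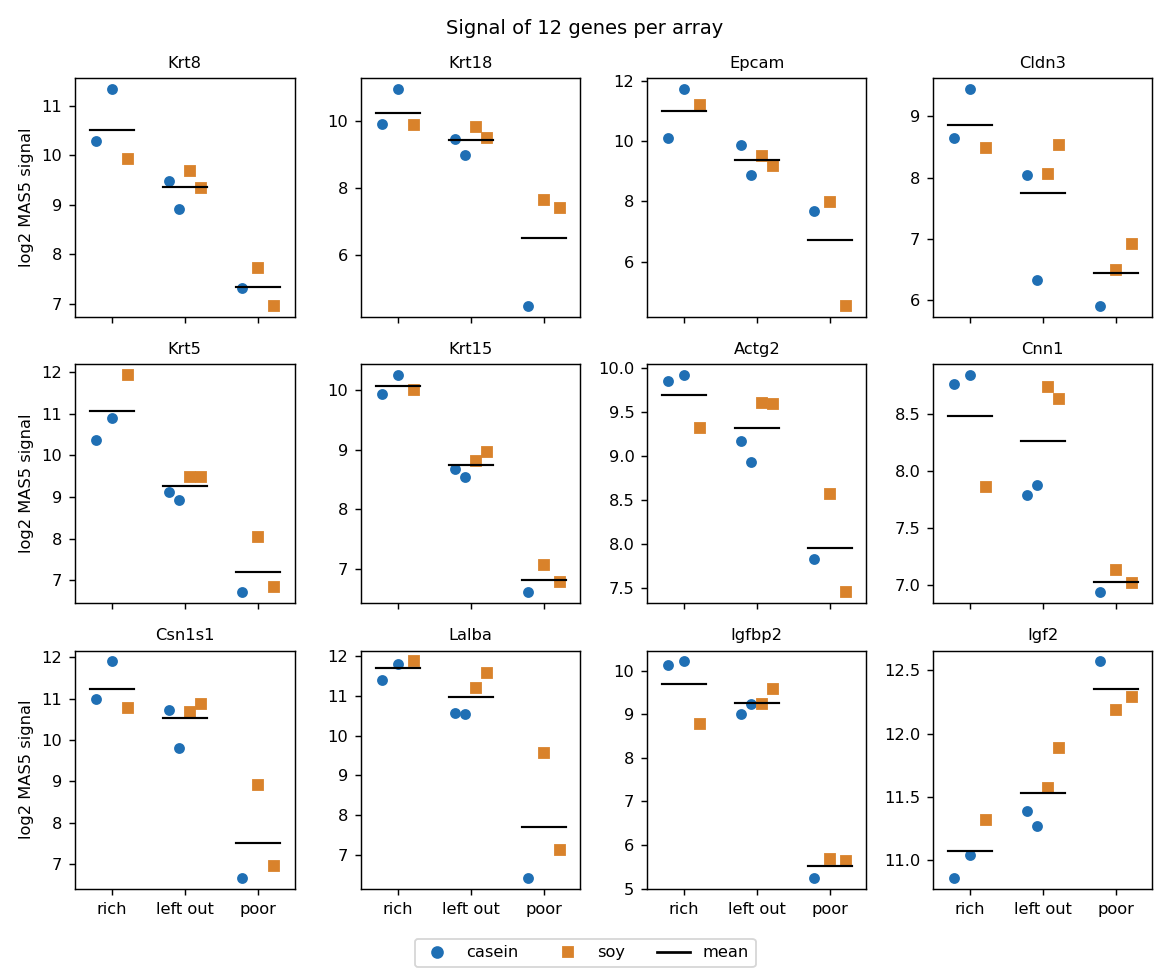
The log2 MAS5 signal of 12 genes in each array (vertical axis) is plotted for the epithelium-rich, left-out and epithelium-poor arrays (horizontal axis). Circles are casein arrays, squares are soy arrays and bars are means over the arrays of a side. Krt8 runs from 9.92 to 11.33 in the epithelium-rich arrays and from 6.96 to 7.72 in the epithelium-poor arrays, and Igf2 is highest in the epithelium-poor arrays.

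Tissues other than epithelium also differed between these arrays. The mean of 18 skeletal muscle genes reached 12.99 in casein 6 and 12.46 in soy 149 on the epithelium-poor side, 11.53 in soy 147 on the epithelium-rich side and 12.80 in soy 157, which was left out. Elsewhere it lay at 6.73 to 8.03. The mean of 19 lymph node and lymphocyte genes was 6.92 in casein 6 and 6.72 in soy 149, but 9.73 in soy 159 and 9.47 to 10.2 in the other 7. The mean of 2 skin genes was 11.58 in soy 147 and 7.19 to 8.05 elsewhere. The epithelium-poor side was thus of 2 kinds: casein 6 and soy 149 had much muscle and little lymph node signal, while soy 159 had the reverse. The 3′ to 5′ signal ratio of the actin control probes, a measure of RNA integrity, was 1.30 to 1.49 in the epithelium-rich, 1.33 to 1.54 in the epithelium-poor and 1.22 to 1.57 in the left-out arrays, and the GAPDH ratio was 1.16 to 1.5, 1.14 to 1.47 and 1.13 to 1.56. The median signal per array lay between 255.7 and 286. Over all probe sets tested, Spearman coefficients were 0.921 to 0.96 between epithelium-rich arrays, 0.884 to 0.944 between epithelium-poor arrays and 0.858 to 0.949 across the sides.

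Of 9520 probe sets bright enough to be compared, 99 were higher in the epithelium-rich arrays by the rule that the 3 arrays of each side did not overlap and that the means differed at least 2-fold, which is 1.04% of those tested. The same rule counted 7 probe sets that were higher in the epithelium-poor arrays, or 0.0735%. Without the fold limit, the sides did not overlap for 1204 probe sets in the first direction (12.6%) and for 759 in the second (7.97%). Nothing is read from these shares, since the arrays were chosen to differ. The 99 probe sets named 86 genes, and 12 of them named no single gene. Their median difference was 1.48 on the log2 scale and the largest 5.69, and 22 had a gap of at least 1 between the lowest epithelium-rich and the highest epithelium-poor array. The median over all probe sets tested was 0.025. The count was 281 without soy 159, the epithelium-poor array with lymph node signal, and between 92 and 144 without any other array. Of the 86 genes, 27 belonged to the 5 lists of ductal epithelium: luminal keratins, epithelial adhesion, basal epithelium, milk and myoepithelium. These lists name 118 genes, of which 55 could be compared.

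**Figure D2:**
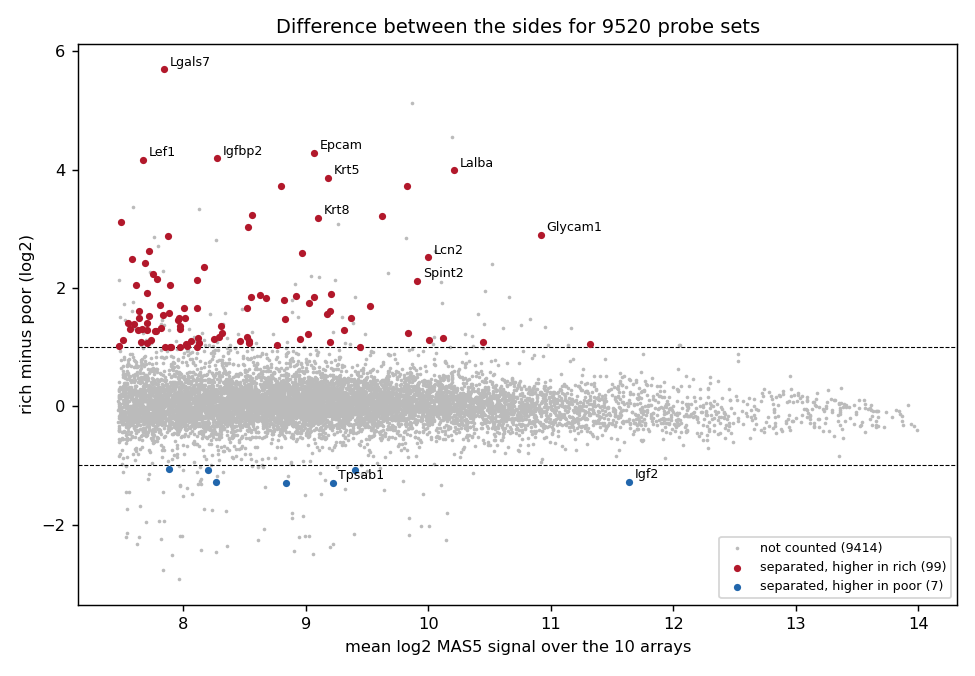
The difference between the mean log2 signals of the epithelium-rich and epithelium-poor arrays (vertical axis) is plotted against the mean log2 MAS5 signal over the 10 arrays (horizontal axis) for 9520 probe sets. Red points are the 99 counted as higher in the epithelium-rich and blue points the 7 higher in the epithelium-poor arrays, grey points are not counted and dashed lines mark differences of 1 and -1. The largest differences are those of Lgals7, at 5.69, and Epcam, at 4.28, among the counted probe sets.

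Luminal keratins were higher in the epithelium-rich arrays in all 3 members that were bright enough, with a median difference of 3.18. The third of them, Krt19, the smallest keratin, was at 10.41, 9.37 and 9.61 in casein 7, casein 18 and soy 147 and at 6.58, 7.42 and 6.31 in casein 6, soy 149 and soy 159. No epithelium-poor array came near an epithelium-rich one, and the gap was 1.95. Krt7 lay below the brightness limit and had a smaller difference, 1.45.

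Genes that hold epithelial cells to each other went the same way. Of 16 adhesion and junction genes compared, out of 41 listed, 13 were counted as higher in the epithelium-rich arrays and none in the epithelium-poor arrays, with a median difference of 1.71. Cldn3, a claudin of tight junctions, was at 9.44, 8.65 and 8.49 in casein 7, casein 18 and soy 147 and at 5.91, 6.50 and 6.92 in casein 6, soy 149 and soy 159. The gap between the sides was 1.57, but casein 20, a left-out array, was at 6.33 and so lay among the epithelium-poor arrays. Spint2, a membrane-bound inhibitor of serine proteases, was at 11.34, 10.56 and 10.78 in casein 7, casein 18 and soy 147 against 8.22, 9.05 and 9.06 in casein 6, soy 149 and soy 159. Its difference was 2.12, and all 4 left-out arrays, at 9.61 to 10.23, lay between the sides. The other members with a wide gap were Fxyd3, a regulator of the sodium pump (difference 2.59, gap 1.29), and Lsr, a component of tricellular junctions (difference 2.16, gap 1.15). The surface glycoprotein Cd24 had a difference of 2.13 with a narrower gap of 0.52, since casein 18 was at 8.35 and casein 6 at 7.83. The 2 desmosome genes named here, Perp and Dsp, which encodes desmoplakin, were highest in soy 147, at 11.03 and 12.19, against 7.98 to 8.90 and 9.13 to 9.72 in the other epithelium-rich arrays. Perp had a difference of 3.12, which was 2.25 without soy 147 and 3.78 without casein 18. For Dsp the difference was 1.84, and 0.92 without soy 147 and 2.45 without casein 18. E-cadherin (Cdh1) and the claudin Cldn7 lay below the brightness limit over the 10 arrays because they were dim in the epithelium-poor arrays. Cdh1 was at 9.59, 8.68 and 9.56 in casein 7, casein 18 and soy 147 and at 5.31, 5.62 and 3.10 in casein 6, soy 149 and soy 159. For Cldn7 the values were 9.17, 8.75 and 8.28 against 3.96, 4.38 and 2.85. Neither overlapped, and such low signals have no background measured beside them, so the sizes of these differences are not exact. Of the 32 members of the 5 epithelial lists on the array that were too dim, 13 met the rule in the epithelium-rich direction and 1 in the other, and with no limit on brightness 303 probe sets, or 1.91% of 15866, met it in that direction.

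Basal epithelial genes showed large differences in a few members and small ones in the rest. Of 12 compared, 11 had a higher mean in the epithelium-rich arrays, 4 met the rule and the median difference was 0.47. Krt5 was at 10.90, 10.36 and 11.92 in casein 7, casein 18 and soy 147 and at 6.72, 8.05 and 6.84 in casein 6, soy 149 and soy 159. Soy 147 was the highest of all arrays, and the difference of 3.86 was 14.5-fold. Krt15, a keratin of basal cells in stratified epithelia, varied little within either side: 10.24, 9.93 and 10.00 against 6.62, 7.07 and 6.78. Its gap of 2.85 was as wide as that of Lgals7, and the left-out arrays lay between the sides at 8.54 to 8.96. Lgals7, which encodes galectin-7, a protein of stratified epithelia, was at 10.33, 9.77 and 11.88 in casein 7, casein 18 and soy 147 against 4.58, 6.92 and 3.41 in casein 6, soy 149 and soy 159. Its difference of 5.69 was 5.08 without soy 147, 6.67 without soy 149 and 4.91 without soy 159. The signals of 4.58 and 3.41 are as dim as those of Cdh1 in the epithelium-poor arrays and have no measured background, so the size and its place as the largest of the counted genes are not exact. The same limit holds for Krt18, Epcam and Lef1 in their lowest arrays and for Igfbp2 in the epithelium-poor arrays. Sfn, which encodes the keratinocyte protein 14-3-3 sigma, was at 11.52 in soy 147 but at 8.17 and 9.10 in casein 18 and casein 7, and its difference of 2.35 was 1.39 without soy 147 and 3.07 without casein 18. Below the brightness limit, Krt14, the partner of Krt5, was at 9.01, 8.40 and 10.83 against 4.11, 4.63 and 4.74, and Tp63, the transcription factor of basal cells, at 7.89, 7.46 and 8.98 against 4.23, 5.57 and 3.94. Both were highest in soy 147, the array with skin signal, and neither overlapped between the sides.

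Skin also holds basal keratins, and its markers were measured beside them. Of 28 skin and hair genes listed, 10 were on the array, 2 could be compared and neither separated the sides. Sprr1a, a cornified envelope protein, was at 12.91 in soy 147 and at 6.63 to 8.22 in the other 9 arrays, and Calml5, a calmodulin-like protein of differentiating skin, at 10.24 and 7.37 to 7.95. The other 8 lay below the brightness limit. Tchh, Sbsn, Asprv1, Tgm1 and Ivl were also highest in soy 147, at 12.69, 10.51, 10.13, 8.45 and 7.12. Krt1, Krt10 and Loricrin were not, and at 7.03, 6.97 and 5.32 there they lay within the range of the other arrays. Soy 147 was at least 1 above both other epithelium-rich arrays for 8 of the 99 probe sets. They named 7 genes, Lgals7, Krt5, Perp, Sfn, Dsp, Trim29 and Bambi. Without soy 147 the difference was 1.23 in place of 1.92 for Trim29, a protein of squamous epithelia, and 0.71 in place of 1.41 for Bambi, a decoy receptor of the TGF-beta family. Sprr1a and Calml5 were at 6.63 to 7.95 in casein 7 and casein 18, while Krt5 was at 10.90 and 10.36 and Krt15 at 10.24 and 9.93. The part of skin in the basal keratin differences was not tested. None of the 12 salivary gland genes on the array was bright enough to be compared.

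Contractile genes of myoepithelial cells, which squeeze milk along the ducts, differed by smaller amounts. Of 12 compared, 9 had a higher mean, with a median difference of 0.77. Of the 12, 8 did not overlap and 3 met the rule, against 12.6% and 1.04% of all 9520 probe sets tested. Actg2, smooth muscle gamma-actin, was at 9.92, 9.85 and 9.32 in casein 7, casein 18 and soy 147 and at 7.83, 8.57 and 7.45 in casein 6, soy 149 and soy 159. Cnn1, which encodes calponin, was at 8.84, 8.76 and 7.86 against 6.94, 7.13 and 7.02. In both, soy 147 was the lowest epithelium-rich array, as it was for Krt8 and Krt18, whereas it was the highest for Krt5 and Krt14. Tagln, which encodes transgelin, had a difference of 1.12 and was lowest in casein 6, at 8.67. These genes are also active in the walls of blood vessels, whose part in the result was not tested. Desmin (Des), which skeletal muscle also holds, went the other way, at 11.99 in casein 6 and 10.78 in soy 149 against 8.68 to 10.00 in the epithelium-rich arrays, and at 8.87 in soy 159. Leaving out soy 147 or soy 149 raised the count for this list from 3 to 5.

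**Figure D3:**
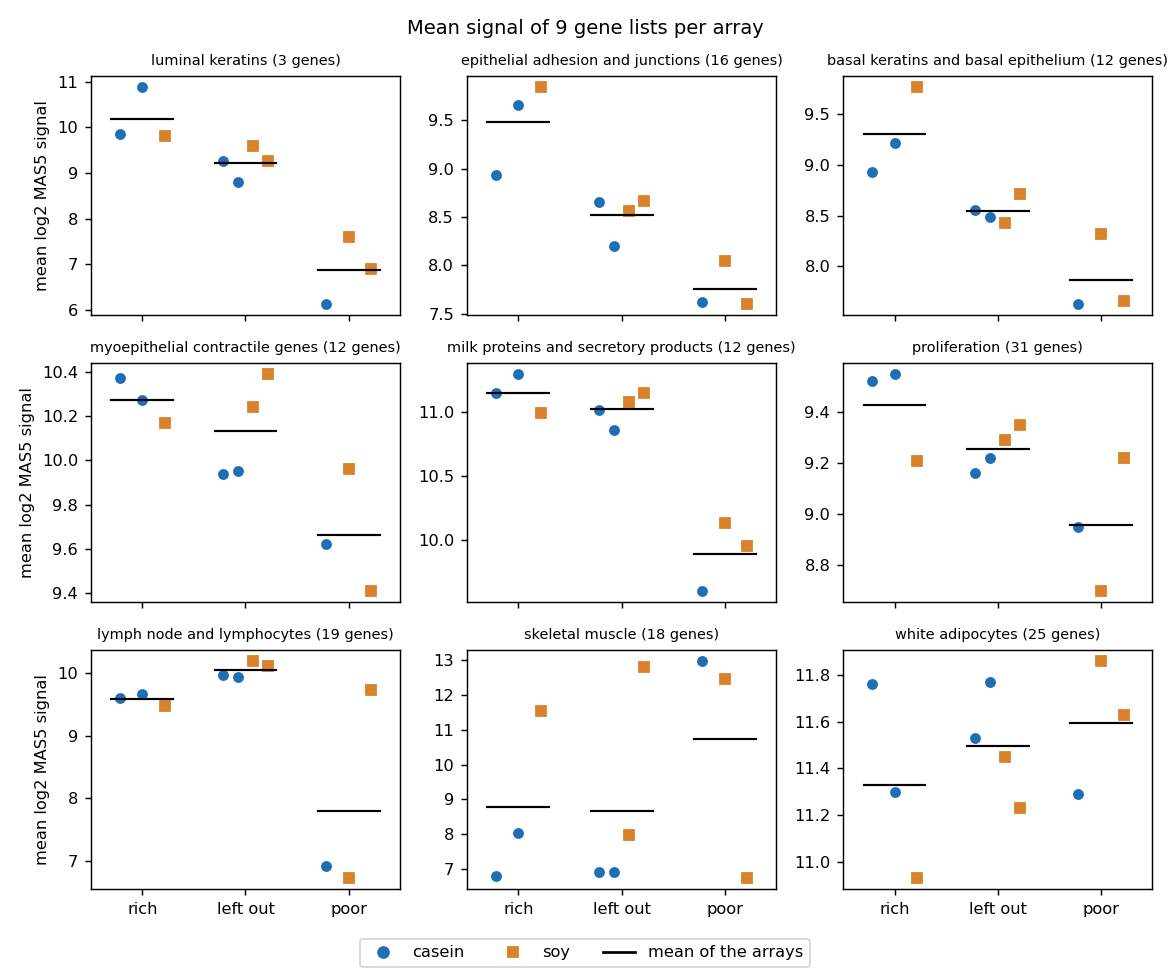
The mean log2 MAS5 signal over the compared members of 9 gene lists (vertical axis) is plotted per array for the epithelium-rich, left-out and epithelium-poor arrays (horizontal axis). Circles are casein arrays, squares are soy arrays and bars are means over the arrays of a side. The luminal keratin mean runs from 9.81 to 10.89 in the epithelium-rich and from 6.13 to 7.59 in the epithelium-poor arrays, while the lymph node mean is low in casein 6 and soy 149 alone.

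Some milk and secretory genes separated the sides and others did not. Of 12 compared, out of 31 listed, 9 had a higher mean in the epithelium-rich arrays, with a median difference of 0.89. Of the 12, 5 did not overlap in that direction and 4 met the rule, against 12.6% and 1.04% of all 9520 probe sets tested. The 3 with a lower mean, named after their values were seen, were Fabp3, a fatty acid carrier that muscle also holds, at -1.18, Xdh, which encodes xanthine dehydrogenase, at -0.36 and Scd, a fatty acid desaturase, at -0.21. Csn1s1 was at 11.90, 10.99 and 10.78 in casein 7, casein 18 and soy 147 and at 6.66, 8.91 and 6.94 in casein 6, soy 149 and soy 159. The left-out arrays, at 9.80 to 10.88, lay near the epithelium-rich ones. Lalba, which encodes alpha-lactalbumin, the protein that directs lactose synthesis, was at 11.81, 11.40 and 11.87 against 6.41, 9.57 and 7.12. In both genes soy 149 was the highest epithelium-poor array. Without it the differences of 3.72 and 3.99 were 4.42 and 4.93, and without casein 6 that of Lalba was 3.34. Lcn2, an iron-scavenging lipocalin secreted by epithelia, had a difference of 2.51. Glycam1, the fourth of these genes, is made both by the mammary gland and by the high endothelial venules of lymph nodes. It was at 12.04, 11.59 and 11.46 in the epithelium-rich arrays and at 7.81 and 7.40 in casein 6 and soy 149, but at 11.19 in soy 159. Its level was thus low where the lymph node mean was low, and its difference of 2.90 was 4.09 without soy 159 and 2.20 without soy 149. The probe sets of 2 other milk genes, Csn2, which encodes beta-casein, and Wap, whey acidic protein, were dim in every array, at 6.58 to 7.72 and 4.26 to 6.62, and the sides overlapped.

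Secreted and metabolic genes that no list named were among those with the widest gaps. Igfbp2 was at 10.22, 10.13 and 8.78 in casein 7, casein 18 and soy 147 and at 5.24, 5.68 and 5.63 in casein 6, soy 149 and soy 159. The epithelium-poor arrays lay within a narrow band, but about as dim as Cdh1 in casein 6 and soy 149. Such signals have no measured background, so the width of this band, the size of the gap and its rank are not exact. The left-out arrays lay at 9.01 to 9.59, inside the epithelium-rich range. The gap of 3.10 was the widest among probe sets above the brightness limit. Below it, Cldn7 and Krt14 had gaps of 3.90 and 3.66. Olah, the thioesterase that releases medium-chain fatty acids in the lactating mammary gland, was at 9.08, 8.48 and 8.32 against 6.15, 6.42 and 6.61. The difference was 2.23, with all 4 left-out arrays at 7.94 to 8.33. Lbp, lipopolysaccharide-binding protein, and S100a14, a calcium-binding protein of epithelia, had differences of 1.83 and 2.87. Plpp2, a lipid phosphate phosphatase, and Ptk7, a pseudokinase of planar cell polarity, had smaller differences of 1.48 and 1.66 with gaps of 1.07 each. Syndecan-1 (Sdc1), a heparan sulphate proteoglycan of epithelial surfaces named here after its values were seen, had a difference of 1.61.

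Receptors and transcription factors were compared in short lists. Over all 9520 probe sets tested, 1.04% met the rule in the epithelium-rich direction, so counts of 0 or 1 in such lists are not read as a result. Of 13 hormone receptors and response genes compared, 1 met the rule, 4 had a higher and 9 a lower mean in the epithelium-rich arrays, and the median difference was -0.17. That gene was Prlr, the prolactin receptor, at 9.75, 9.80 and 8.84 in casein 7, casein 18 and soy 147 and at 6.94, 7.79 and 8.12 in casein 6, soy 149 and soy 159. A dimmer probe set of Prlr had a difference of only 0.40 and overlapped. Stat3, a transcription factor of cytokine signalling, had a difference of 0.66 without overlap. Cish, an inhibitor of cytokine receptor signalling, was lower in the epithelium-rich arrays by 0.97 in the mean with overlap, and Pth1r, the receptor of parathyroid hormone-related protein, had a difference of -0.69 without overlap at its brighter probe set and of 0.18 at the other. The estrogen receptor Esr1 was dim, at 3.86 to 4.19 in the epithelium-rich and 4.41 to 5.71 in the epithelium-poor arrays, while casein 10, a left-out array, was at 6.41. It was 1 of 10 hormone genes below the brightness limit, of which 2 met the rule in the epithelium-rich direction and 1, Esr1, in the other. The 2 were Areg, which encodes amphiregulin, a ligand of the EGF receptor, and Wnt4, a Wnt ligand of the progesterone response. Areg was at 8.41, 6.21 and 7.52 in casein 7, casein 18 and soy 147 and at 1.68, 3.14 and 2.56 in casein 6, soy 149 and soy 159. Its difference of 4.92 was larger than that of Krt8, but rests on signals too dim for an exact size. Wnt4 was at 7.51, 6.52 and 8.42 against 6.48, 5.69 and 3.57, with a gap of 0.04, and its difference of 2.24 was 1.40 without soy 159. From the list of EGF, FGF, HGF and neuregulin signalling, 9 genes were compared and no ligand was among them. They were 4 receptors of the EGF receptor and FGF receptor families, 2 Sprouty inhibitors, Ddr1 and 2 Eph receptors. None met the rule, and 8 had a higher mean, with a median of 0.26. The largest differences were 0.84 for Fgfr2, the FGF receptor of epithelia, 0.79 for Egfr, the EGF receptor, and 0.64 for Ddr1, a collagen receptor. Of 7 epithelial transcription factors compared, out of 30 listed, none met the rule, and the median was 0.11, while 2 of the 7 below the brightness limit met it in the epithelium-rich direction. Sox4 was higher by 0.76 without overlap, and Klf4 was at 11.46 in soy 147 and 10.26 to 10.80 in the other epithelium-rich arrays against 10.99 to 11.36 in the epithelium-poor ones. Gata3, the luminal lineage factor, lay below the brightness limit at 8.28, 7.28 and 8.70 against 4.79, 6.16 and 6.27.

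Of 21 Wnt and Notch genes compared, 1 met the rule and 13 had a higher mean, with a median of 0.30. It was Lef1, a transcription factor of the Wnt pathway that lymphocytes also hold. Lef1 was at 8.71, 8.59 and 9.08 in the epithelium-rich arrays, 2.54 in casein 6, 2.87 in soy 149 and 8.47 in soy 159. The left-out arrays were at 8.87 to 9.37, so only the pair of arrays with little lymph node signal stood apart. The difference of 4.17 was 6.09 without soy 159, 3.12 without casein 6 and 3.29 without soy 149. Tcf7, its relative in T cells, showed the same pattern. It was at 6.88 and 6.90 in casein 6 and soy 149 and at 10.07 to 10.68 in the other 8 arrays. Of 8 genes of this list below the brightness limit, 2 met the rule in the epithelium-rich direction. They were Wnt4, given above, and the Wnt ligand Wnt5b, with a difference of 3.08 and a gap of 1.43 at dim signals.

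Egr1, Egr2 and Plk2, which are induced early by growth signals, are in no list used here and were picked from the 99 probe sets after their values were seen, so they do not stand for such genes as a group. Egr1, an early growth response factor, was at 10.56, 10.59 and 10.64 in casein 7, casein 18 and soy 147 and at 9.46, 9.32 and 9.54 in casein 6, soy 149 and soy 159. The SD was 0.04 over the epithelium-rich and 0.11 over the epithelium-poor arrays (n = 3 each), beside a difference of 1.16. The rule already asks for sides that do not overlap, so this small spread is no support for the difference. The left-out arrays lay at 9.84 to 10.47, above the epithelium-poor range. Egr2 and the kinase Plk2 had differences of 1.89 and 1.14.

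Proliferation genes had a median difference of 0.47, with a higher mean in the epithelium-rich arrays for 28 of 31 compared. None met the rule, and 13 did not overlap in that direction and 1 in the other. Over all 9520 probe sets tested, 12.6% did not overlap in that direction and 7.97% in the other, and 5091 had a higher mean. Mki67, the Ki-67 antigen of dividing cells, was at 9.50, 9.88 and 8.88 in casein 7, casein 18 and soy 147 and at 8.69, 7.66 and 9.19 in casein 6, soy 149 and soy 159. The sides overlapped, since soy 159 lay above soy 147. Mcm3, a subunit of the replicative helicase, was at 9.20 to 9.49 in the epithelium-rich arrays and 9.08 in soy 159, and at 8.09 and 7.74 in casein 6 and soy 149. The list mean likewise was 9.22 in soy 159 against 8.95 and 8.70 in casein 6 and soy 149, the arrays with little lymph node signal, and 9.21 in soy 147. Lymphocyte division was not tested as a part of this result. Leaving out soy 147 or soy 159 raised the count for this list from 0 to 4.

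Genes higher in the epithelium-poor arrays were few. Of the 7 probe sets counted, 6 named a gene: Igf2, Tpsab1, Ppp1r1a, Tnfrsf11b, Tmem178a and Tnni1, a slow-muscle troponin seen here by a dimmer probe set than the one used for the muscle list, of which the last 3 lie outside the rule for named genes and were named after their values were seen. Igf2, a growth factor of fetal and young tissues, was at 12.57, 12.19 and 12.29 in casein 6, soy 149 and soy 159 and at 11.04, 10.86 and 11.32 in casein 7, casein 18 and soy 147. The left-out arrays were at 11.27 to 11.89, and the difference was -1.27. Tpsab1, a mast cell tryptase, was at 10.17, 10.21 and 9.88 against 8.85, 8.57 and 8.97, a difference of -1.29. Ppp1r1a, an inhibitor of protein phosphatase 1, had a difference of -1.07, Tnfrsf11b, the decoy receptor osteoprotegerin, of -1.31 and Tmem178a of -1.08. Other genes with the widest gaps in this direction stayed under 2-fold. They were Miga2, a mitochondrial outer membrane protein, at -0.88, Pc, pyruvate carboxylase, and Igfbp6, a binding protein of IGF2, at -0.73 each, the mast cell chymase Cma1 and Fam171b at -0.69 each, Armcx3 at -0.60 and Zcchc24 at -0.52. Zcchc24 varied by 0.02 (SD, n = 3) in the epithelium-poor arrays. The count of 7 was 148 without soy 159, where 17 genes of the skeletal muscle list met the rule, 58 without soy 147, and 13, 15 and 16 without casein 6, casein 18 and soy 149. Only 2 of the 7 were among the 13 counted without casein 6.

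Cell types around the ducts mostly had slightly lower values in the epithelium-rich arrays, with 1 compared member meeting the rule. Over all 9520 probe sets tested, 7.97% did not overlap in this direction and 4429 had a lower mean. Of 16 macrophage and mast cell genes compared, 13 had a lower mean, 8 did not overlap and Tpsab1 met the rule, with a median of -0.37. Cpa3, a mast cell carboxypeptidase, was at 12.25, 11.97 and 11.93 in casein 6, soy 149 and soy 159 against 11.32, 10.90 and 11.74, a small gap. Of 36 fibroblast and matrix genes, 28 had a lower mean and 15 did not overlap, with a median of -0.21, but 23 had a lower mean under quantile normalization, with a median of -0.07. Dcn, the collagen-binding proteoglycan decorin, had a difference of -0.53 and Pcolce, an enhancer of procollagen processing, of -0.56. White adipocyte genes had a lower mean in 22 of 25, with a median of -0.34 and no member without overlap. Lipe, the hormone-sensitive lipase, was at 11.12 in soy 147, the lowest of all arrays, and Cebpa, a transcription factor of fat cells, was also lowest there, at 7.32. Endothelial genes were lower in 13 of 15, with a median of -0.21, and Lyve1, a receptor of lymphatic vessels, had a difference of -0.67. Basement membrane genes were lower in 12 of 15, with a median of -0.22, except that Agrn, which encodes agrin, was higher by 0.47 without overlap. Nerve and Schwann cell genes were lower in 7 of 8, with a median of -0.49. Gap43, a growth cone protein, had a difference of -1.12 and Mbp, myelin basic protein, of -0.89, both with overlap. Below the brightness limit, 2 of 9 nerve and Schwann cell genes met the rule in the epithelium-rich direction, Uchl1 at 3.01 and Sox10 at 2.42. Lama1 of the basement membrane list also did, at 1.63. In the epithelium-poor direction, 1 of 4 dim macrophage and mast cell genes met it. Of 3 blood genes and 2 brown adipocyte genes compared, none met the rule, and the medians were -0.19 and -0.33. The part of the deposited scaling of the arrays in the small negative values was not tested beyond the alternatives described in the closing section.

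Skeletal muscle genes had a lower mean in the epithelium-rich arrays in all 18 compared, with a median of -2.17, but none of these separated the sides at its brightest probe set. A dimmer probe set of Tnni1 did, with a difference of -1.07. Of 12 muscle genes below the brightness limit, 1 met the rule in the epithelium-poor direction. Actn3, a fast-fibre actinin, was at 13.66 in casein 6 and 13.05 in soy 149 but at 4.99 in soy 159, and at 11.95 in soy 147 but 7.15 and 5.11 in casein 7 and casein 18. Pvalb, the calcium buffer of fast fibres, was at 13.65, 13.03 and 3.68 in casein 6, soy 149 and soy 159 and at 7.13, 3.02 and 11.44 in casein 7, casein 18 and soy 147. Muscle was therefore high on both sides of the contrast. Lymph node and lymphocyte genes had a higher mean in all 19 compared, and in 17 under quantile normalization or median centring, with a median of 1.80, and 2 of them, Lef1 and the chemokine receptor Cxcr4, met the rule. Cd3d, a chain of the T cell receptor complex, was at 4.96 and 5.03 in casein 6 and soy 149 and at 9.68 to 11.12 in all others, soy 159 included at 10.40. Cd79b, of the B cell receptor, was at 3.41 and 4.32 in the same 2 arrays and at 8.65 to 9.78 in the rest. Without soy 159, 16 lymph node genes met the rule in the epithelium-rich direction.

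Soy 159, poor in epithelium with lymph node signal at 9.73 and muscle at 6.73, was set alone against the epithelium-rich arrays for the 99 probe sets. The epithelium-rich mean was at least 1 above soy 159 for 57 of them, which named 50 genes, 25 in the 5 epithelial lists and none in the lymph node list. For the other 42 it was under 1. These named 36 genes, of which 2, Glycam1 and Tagln, were in the epithelial lists and 2, Lef1 and Cxcr4, in the lymph node list. The median difference between the sides was 1.83 for the first set and 1.27 for the second. Against soy 159 alone the differences were 3.56 for Krt8, 6.48 for Epcam, 4.22 for Krt5, 3.27 for Krt15, 4.28 for Csn1s1 and 4.08 for Igfbp2, but 0.51 for Glycam1 and 0.32 for Lef1. With soy 159 as the only epithelium-poor array, 115 probe sets met the rule, 57 of them among the 99. With casein 6, soy 149 and soy 147, the 3 arrays with much muscle, left out, 103 met it, 55 of them among the 99. Soy 159 was chosen for its low luminal genes, and its lymph node mean was like that of the epithelium-rich arrays. The split into 57 and 42 probe sets was thus largely set by that choice and describes soy 159 only. The part of lymph node signal in either set was not tested.

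Both diets held arrays of each side, so the differences were also read within a diet. All 99 probe sets were higher within casein, where casein 7 and casein 18 stood against casein 6, and within soy, where soy 147 stood against soy 149 and soy 159. This follows from the rule that the sides do not overlap. The difference was at least 1 for 85 within casein, for 76 within soy and for 62 in both. Krt8 differed by 3.49 within casein and 2.59 within soy, Krt15 by 3.46 and 3.07, and Krt5 by 3.91 and 4.48. Krt18 differed more within casein, by 5.92 against 2.37, because casein 6 was at 4.49. Perp differed more within soy, by 4.81 against 2.31, with soy 147 at 11.03. With 1 to 2 arrays on a side within a diet, these values have no spread to be set against.

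**Figure D4:**
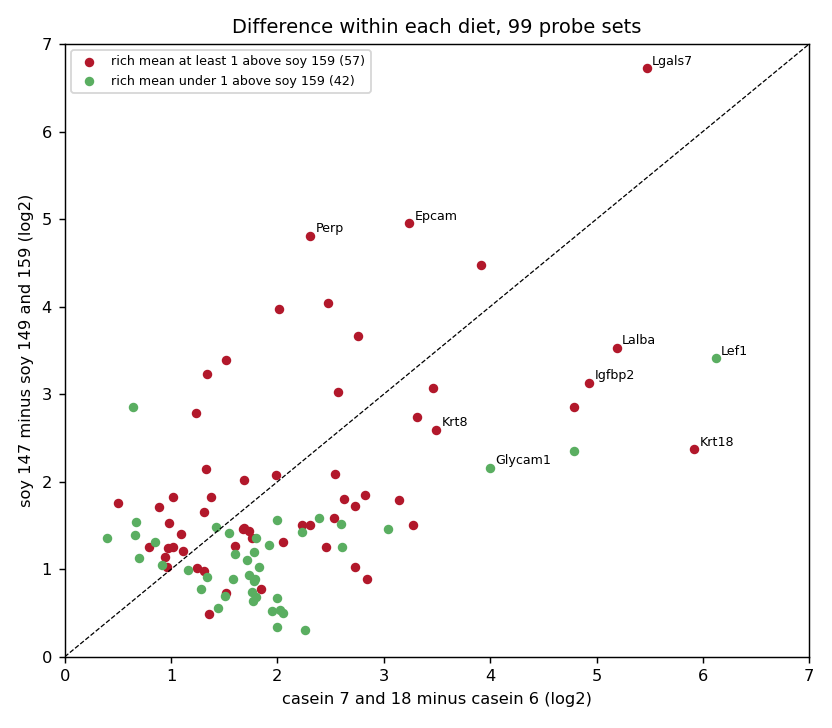
For each of the 99 probe sets, the log2 difference of soy 147 from the mean of soy 149 and soy 159 (vertical axis) is plotted against that of casein 7 and casein 18 from casein 6 (horizontal axis). Red points are the 57 probe sets at least 1 above soy 159, green points are the other 42 and the dashed line marks equal differences. Krt18 lies far below the line, at 5.92 and 2.37, and Epcam lies above it, at 3.24 and 4.95.

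The 4 left-out arrays lay above the epithelium-poor arrays for most of these probe sets, and each stood above the lowest epithelium-rich array for 28 to 41 of the 99. On a scale where 0 is the epithelium-poor and 1 the epithelium-rich mean, the median place over the 99 probe sets was 0.71 for casein 10, 0.54 for casein 20, 0.73 for soy 155 and 0.64 for soy 157. They lay above the highest epithelium-poor array for 89, 78, 83 and 79 probe sets in that order, and all 4 did so for 61. Casein 10, casein 20, soy 155 and soy 157 lay between the sides for 51, 50, 42 and 39 of the 99, and all 4 did so for 20. Of all 1204 probe sets without overlap in this direction, those counts were 459 and 26. The luminal keratin means of 9.26, 8.80, 9.59 and 9.26 follow the same order of casein 20 lowest and soy 155 highest, but they belong to the values that placed these arrays in neither side. For Krt5 and Krt15 the left-out arrays lay near the middle, while for Igfbp2 they lay in the epithelium-rich range and for Lgals7, at 7.60 to 8.43, near the middle as well.

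**Figure D5:**
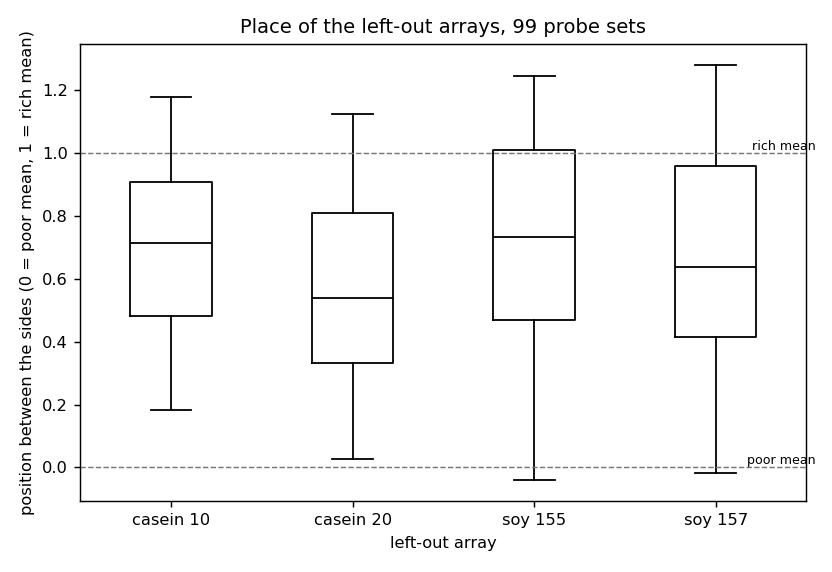
The place of each left-out array between the sides (vertical axis, where 0 is the epithelium-poor and 1 the epithelium-rich mean) is shown for the 99 probe sets, with the 4 arrays along the horizontal axis. Boxes span the quartiles, lines in boxes are medians and whiskers reach the 5th and 95th percentiles. Medians run from 0.54 in casein 20 to 0.73 in soy 155.

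Diet is the only comparison independent of how the sides were chosen, and it was tested over all 10 arrays. In limma, soy against casein gave an adjusted p under 0.05 for 0 of 9520 probe sets, or 0.0%, with 433 at an unadjusted p under 0.05. Without the intensity trend in the variance these counts were 0 and 424. Among the 99 probe sets the smallest adjusted p in limma was 0.98. Elovl6, a fatty acid elongase named after its value was seen, was the only probe set of the 99 with an unadjusted p under 0.05, with a soy minus casein difference of -0.71 (adjusted p = 0.98 in limma). It was at 9.62 in casein 18 and at 7.51 to 8.46 elsewhere, and its gap was 0.40. A soy minus casein difference was -0.75 for Krt8, 0.08 for Krt18 and -1.17 for Epcam, all with an adjusted p of 0.99 or 1 in limma. These are smaller than the differences between the sides within either diet, but the latter are large by choice, since luminal gene levels chose the sides.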

How the data were processed

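The deposited table gives 1 signal intensity per probe set and array, unlogged, which the authors computed in MAS5 (version and settings not given in the sources used here), per the submitters' processing notes. Biotin-labelled cRNA was hybridised to 1-colour arrays, per the labels' protocols. The 2% trimmed mean signal, averaged over the 10 arrays, was 500.1, and the deposited scaling was kept. Detection calls were not used here, so low signals have no measured background.

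Signals under 1 were set to 1 before log2 was taken. Of 15923 probe sets, 57 controls were left out. The platform annotation named 1 gene for 12783 of the rest, several for 312 and none for 2771, and only the first kind was named. The GRCr8 gene table held 12754 of their identifiers and changed 0 symbols. Probe sets were compared when their mean log2 signal over all arrays reached the 40th percentile, 7.47 (a signal of 177), which left 9520 for 7151 genes. The number of arrays limits the precision. No test was made between the sides, since measured values chose them. Diets were compared with limma (version 3.58.1, R 4.3.3), with a two-sided moderated test whose variance followed the signal level, and p-values were adjusted by the Benjamini-Hochberg method. Both steps were tested on simulated data. In the 22 lists, of 560 genes, the brightest probe set stood for each gene.

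Genes named were, by rule, Krt8, Krt18 and Epcam, the 20 genes with the widest gap higher in the epithelium-rich and the 10 higher in the epithelium-poor arrays, and up to 4 members of each list with the largest difference. The list members named were narrowed after their values were seen. Dsp, Cd24, Sdc1, Cxcr4, Egr1, Egr2, Plk2, Elovl6, Trim29, Bambi, Tnni1, Tnfrsf11b, Tmem178a, Xdh, Scd, Fabp3 and the genes below the brightness limit were also chosen then. The sides, lists and rule were chosen with earlier results of these data known. Alternatives were quantile normalization, median centring, other filters and folds, log2 of the signal plus 16, within-diet means, averaging the probe sets of a gene, a variance model without the signal trend and leaving out arrays.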

Additional observations from a re-analysis of the deposited data

Results flagged for a closer look

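Within the 5 arrays of a diet, 34 of 216 sets of values held an array far from the other 4. The flag is set for about 1 in 20 sets of separate, unselected values. Many of these genes were named for wide differences and many change together, so that rate does not apply here. No explanation was tested for any of the 34. Casein 6, an epithelium-poor array, was lowest of the casein arrays for Igfbp2 at 5.24, Lalba at 6.41, Tagln at 8.67, Glycam1 at 7.81, Lef1 at 2.54, Cd3d at 4.96, Cd79b at 3.41, Tcf7 at 6.88 and Mcm3 at 8.09. It was highest for Fam171b at 9.85, Igfbp6 at 11.94, Des at 11.99, Actn3 at 13.66, Gap43 at 10.42 and Fabp3 at 11.20. Its means were lowest for milk genes at 9.60 and lymph node genes at 6.92 and highest for skeletal muscle at 12.99.

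Soy 149 was lowest of the soy arrays for Glycam1 at 7.40, Lef1 at 2.87, Cd3d at 5.03, Cd79b at 4.32, Tcf7 at 6.90 and Mcm3 at 7.74. Its means of the lymph node list, 6.72, and of the proliferation list, 8.70, were also the lowest. Soy 147, the epithelium-rich soy array, was highest for Sfn at 11.52, Sprr1a at 12.91, Calml5 at 10.24 and Dsp at 12.19, and lowest for Miga2 at 7.64 and Lipe at 11.12.

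Casein 7 had the highest mean of the EGF, FGF, HGF and neuregulin list among casein arrays, at 9.18. Casein 10, a left-out array, was highest for Esr1 at 6.41, a dim probe set.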

How the results depend on the processing

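The number of arrays and the choice of sides limit all counts, and which genes are counted depends on the fold and brightness limits. The 99 probe sets higher in the epithelium-rich arrays were 309 at 1.5-fold and 27 at 4-fold, 34 with a filter at the 60th percentile and 303 with no filter, and ran from 92 to 281 when 1 array was left out. They were 84 under quantile normalization or median centring, all 84 among the 99, 88 with log2 of the signal plus 16 and 139 within diets. The 7 probe sets higher in the epithelium-poor arrays were 98 at 1.5-fold, 0 at 4-fold, 4 at the 60th percentile, 142 with no filter, 11 within diets and 12 under median centring. They were 21 with soy 159 as the only epithelium-poor array, 27 without the 3 arrays high in muscle signal, and 8 to 148 without 1 array. The size of this count changed most without soy 159 and soy 147, but which probe sets it held depended on casein 6. Of the 7, 2 were still counted without casein 6, 5 without casein 7, 6 without casein 18 and all 7 without soy 147, soy 149 or soy 159. With fewer arrays on a side, fewer values need to be apart. Other causes were not tested. Over the 52 named genes that met the rule, 567 of 592 values under the alternatives moved by less than the spread between arrays, 25 moved by more and 0 changed sign. The sides do not overlap for these genes by the rule, so leaving out arrays or reading within diets could not change a sign. The 0 is therefore no sign of stability under those alternatives. For 39 other genes named, 483 of 511 moved by less and 28 by more, and 16 values of 8 genes changed sign. With soy 159 as the only epithelium-poor array, Actn3 went from -2.50 to 3.08, Pvalb from -2.92 to 3.52, Des from -1.41 to 0.27, Fabp3 from -1.18 to 0.66, Scd from -0.21 to 0.32, Cd3d from 3.08 to -0.53 and Cd79b from 3.33 to -0.06. Without the 3 arrays high in muscle signal, Actn3 was 1.14, Pvalb 1.39, Fabp3 0.25, Scd 0.66, Cd3d -0.43, Cd79b -0.02 and Sprr1a, 1.28 in the contrast, -0.09. Without soy 147, Sprr1a was -0.72 and Scd 0.13. The diet comparison gave 0 probe sets in limma in each setting run, with 272 to 843 at an unadjusted p under 0.05. No paired analysis was possible because casein and soy arrays share no replicate number.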
